A study of Mus musculus with 9 samples.

Results

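Excitation-contraction coupling and calcium handling genes were followed in C2C12 cells, murine myoblasts of an immortal line that form myotubes when serum is withdrawn. The 41 genes were taken from a named list of calcium channels, pumps, exchangers, calcium-binding proteins and triad proteins, and all 41 were found among the 52780 genes of the count table. Of these, 39 passed the filter on low counts, as did 19545 genes in all. Total RNA was collected on day 4 of differentiation, and polyadenylated mRNA was sequenced. The study asked how knockdown of each splice isoform of the histone variant macroH2A1 changed gene expression in myotubes. Each group held 3 samples. The controls carry the label wild type and are named si Ctrl here, after the scrambled siRNA of the study's methods. In the si mH2A1.1 and si mH2A1.2 groups an siRNA at 10 nM was directed against the macroH2A1.1 or the macroH2A1.2 isoform, and transfection was repeated before, at and after the change to differentiation medium. All 9 samples share the same cell line, medium and day. C2C12 is 1 line. The study describes its 3 replicates as independent and biological, and the labels do not say whether they were separate cultures. The p-values given therefore measure only the spread between these samples.

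In a muscle fiber, depolarization of the transverse tubule is sensed by the L-type calcium channel, which is coupled to the ryanodine receptor in the membrane of the sarcoplasmic reticulum (SR). Calcium leaves the SR through that receptor, starts contraction, and is returned by the SR calcium pumps (SERCA), while calsequestrin holds calcium inside the SR and parvalbumin binds it in the cytosol. The triad, where tubule and SR meet, is built by junctophilins, triadin, junctin and related proteins, and it matures as myotubes differentiate.

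Totals per sample ranged from 36924252 to 42223108 counts. Levels are given in counts scaled to a library's total (CPM) after trimmed mean of M-values (TMM) scaling, as mean ± SD with n = 3, and levels of different genes were compared only per kilobase of exon (CPM per kb). Differences are log2 fold changes ± SE from edgeR's quasi-likelihood test over all 19545 genes, and a gene was called at a Benjamini-Hochberg adjusted p of 0.05 or less. H2afy, which encodes both macroH2A1 isoforms, was at 56.3 to 62.4 CPM in si Ctrl, 30.0 to 38.8 CPM in si mH2A1.1 and 43.2 to 47.2 CPM in si mH2A1.2. It fell with si mH2A1.1 (log2 fold change -0.85, adjusted p = 0.00331) and was lower without passing the test with si mH2A1.2 (-0.39, adjusted p = 0.108). These counts sum both isoforms, so they do not show which isoform was depleted. For that the study relied on immunoblots, from which it reported specific interference. The 41 genes took 0.844 to 1.16% of all counts in si Ctrl, 0.950 to 1.12% in si mH2A1.1 and 0.650 to 0.768% in si mH2A1.2. In bulk samples, fewer cells of a type and less RNA per cell cannot be told apart.

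The parvalbumin gene Pvalb rose 3.10-fold with si mH2A1.1 and fell 7.39-fold with si mH2A1.2. Knockdown of macroH2A1.1 also raised Atp2a2, which encodes the SERCA pump SERCA2, 2.15-fold and its inhibitor Pln 4.41-fold, and it lowered the T-type calcium channel gene Cacna1g 11.2-fold. Knockdown of macroH2A1.2 lowered the junctophilin genes Jph1 and Jph2 and the voltage sensor subunit gene Cacnb1 1.62-, 1.50- and 1.60-fold, and no tested gene of the list was called higher. With 1 of the 9 samples left out in turn, these calls were lost in 7, 8 and 4 fits. Jph1 and Jph2 were also below all controls with si mH2A1.1, without passing the test (log2 fold change -0.46 and -0.41, adjusted p = 0.0648 and 0.061). For both, the difference between the knockdowns was not called (0.272 and 0.329).

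With si mH2A1.1 against si Ctrl, 7 of the 39 tested genes were called, next to 11.1% of all tested genes. Of these, 6 rose (Atp2a2, Pln, Pvalb, S100a1, Orai1 and Stim2), next to 6.18% of all tested genes, and 1 fell (Cacna1g), next to 4.93%. With si mH2A1.2 against si Ctrl, 4 genes were called, next to 2.35% of all genes. All 4 fell (Pvalb, Cacnb1, Jph1 and Jph2), next to 0.982%, and 0 rose, next to 1.37%. At an unadjusted p under 0.05, for which the share of all genes was not counted here or below, edgeR placed 15 genes lower and 0 higher. DESeq2 at the adjusted threshold placed 9 lower and 0 higher, next to 5.90% of all genes in either direction. Replicate numbers of these groups marked samples that deviate together, and with the replicate number as a block 9 genes were called in this comparison, all lower, next to 5.14% of all genes. The same block gave 15 calls for si mH2A1.1 against si Ctrl, 10 higher and 5 lower, next to 20.8% of all genes. When the knockdowns were compared directly, 18 genes were called, next to 22.5% of all genes. Of those, 16 were higher with si mH2A1.1, next to 12.0%, and 2 were lower (Cacna1g and Cacna2d1), next to 10.5%. Under a stricter rule (adjusted p under 0.01 and a log2 difference of 0.8 or more in size), 4 genes remained with si mH2A1.1 (Cacna1g, Atp2a2, Pvalb and Pln), next to 1.80% of all genes. That rule left 1 gene with si mH2A1.2 (Pvalb), next to 0.179%, and 4 in the direct comparison (Pvalb, Atp2a2, Cacna1g and Mrln), next to 6.38%. In each call made at an adjusted p of 0.05 or less without the block, the 3 samples of one group lay entirely above or below those of the other. The same held for some differences that were not called, such as Casq1 with either knockdown. Separation and call rest on the same values, and the share of all genes so separated was not counted.

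Most of the list lay below si Ctrl with si mH2A1.2, where 5 of the 39 tested genes had a log2 fold change above 0, and the median over the 39 was -0.33, next to 0.00 over all tested genes. With si mH2A1.1 the count was 22 and the median 0.14, next to -0.01 over all genes, and in the direct comparison 30 genes were above 0 with a median of 0.31, next to -0.01. The comparisons with si Ctrl share the same control samples and are therefore not independent of each other.

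**Figure D1:**
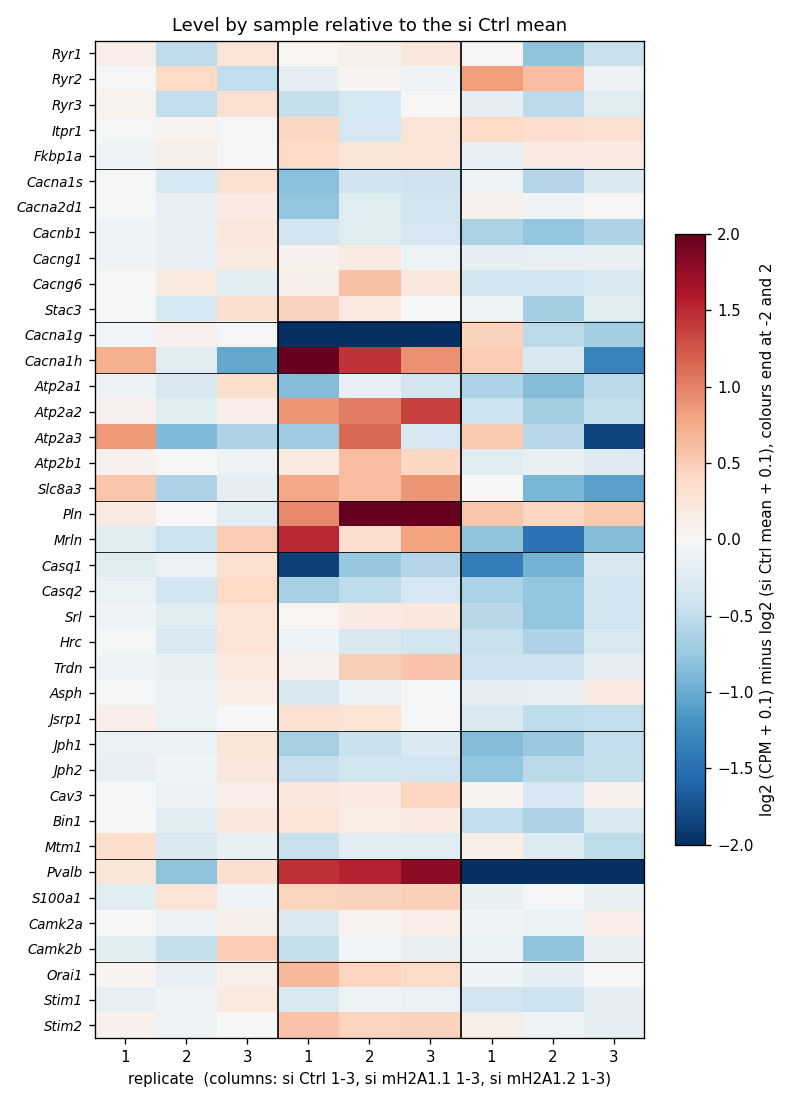
Level of the 39 tested genes (rows, grouped by role with black lines) in each of the 9 samples (columns, 3 per group). Colours show log2(CPM + 0.1) minus log2 of the si Ctrl mean + 0.1 and end at -2 and 2. Pvalb is red in all 3 si mH2A1.1 samples and at the blue end in all 3 si mH2A1.2 samples, Cacna1g is at the blue end in the si mH2A1.1 samples, and most rows are pale blue with si mH2A1.2.

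Promoter sequences from RefSeq on GRCm38.p6, each 300 bases long from 250 bases before to 50 after a start site, were held for 26 of the 41 genes, with 34 promoters in all. Both strands were searched for the E-box CANNTG, to which MyoD-family factors bind, for its form CAGCTG, and for the MEF2 consensus, all of which read the same on either strand, and CAGCTG is itself a case of CANNTG. An E-box was present in 25 of the 34 promoters (73.5%), next to 72.3% of the 32851 promoters of all genes, CAGCTG in 12 (35.3%), next to 16.3%, and the MEF2 consensus in 2 (5.88%), next to 3.19%. These matches describe letters in this window only, since no binding of these factors was measured. Shown are both promoters of Pvalb, the gene that moved in opposite directions, that of Pln, which rose with si mH2A1.1, and 1 of the 2 overlapping windows of Jph2, which fell with si mH2A1.2. Both Jph2 windows hold the same CAGCTG, which was counted once for each window. The promoters of Atp2a2 and Cacna1g were not analysed here. Capitals mark each CANNTG match in the first Pvalb promoter and in those of Pln and Jph2, and the MEF2 match in the second Pvalb promoter. The positions are chr15:78204188-78204487 and chr15:78206351-78206650, both minus strand, for Pvalb, chr10:53337436-53337735, plus strand, for Pln, and chr2:163397944-163398243, minus strand, for Jph2.
Pvalb promoter 1: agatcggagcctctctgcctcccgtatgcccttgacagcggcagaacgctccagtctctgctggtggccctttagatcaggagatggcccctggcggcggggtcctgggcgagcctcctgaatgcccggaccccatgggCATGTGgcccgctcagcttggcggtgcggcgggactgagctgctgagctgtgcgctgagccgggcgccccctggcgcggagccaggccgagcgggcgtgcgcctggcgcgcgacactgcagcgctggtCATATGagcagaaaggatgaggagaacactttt
Pvalb promoter 2: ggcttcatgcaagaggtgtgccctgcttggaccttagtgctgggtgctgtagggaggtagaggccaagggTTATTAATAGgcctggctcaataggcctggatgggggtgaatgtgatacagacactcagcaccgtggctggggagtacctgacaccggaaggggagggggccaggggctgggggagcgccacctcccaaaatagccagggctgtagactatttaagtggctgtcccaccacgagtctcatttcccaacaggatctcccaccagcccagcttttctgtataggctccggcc
Pln promoter: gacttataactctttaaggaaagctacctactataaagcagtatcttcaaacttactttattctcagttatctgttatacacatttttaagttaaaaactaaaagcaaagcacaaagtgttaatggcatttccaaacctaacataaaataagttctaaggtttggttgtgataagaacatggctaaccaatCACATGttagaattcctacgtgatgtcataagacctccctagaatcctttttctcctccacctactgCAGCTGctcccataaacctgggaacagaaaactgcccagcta
Jph2 promoter: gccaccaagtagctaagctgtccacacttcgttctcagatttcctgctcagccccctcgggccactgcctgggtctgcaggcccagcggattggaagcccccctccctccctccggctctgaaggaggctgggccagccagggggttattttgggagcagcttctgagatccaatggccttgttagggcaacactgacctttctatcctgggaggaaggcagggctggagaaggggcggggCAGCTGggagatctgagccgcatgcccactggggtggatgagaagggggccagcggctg

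The L-type channel complex, the voltage sensor of the tubule, had 7 genes, of which 6 were tested. Knockdown of macroH2A1.2 lowered 1 of them and that of macroH2A1.1 none (3 lower at an unadjusted p under 0.05, and 2 lower by DESeq2), and 3 differed between the knockdowns. Cacnb1, the beta subunit that brings the channel to the tubule membrane, was at 146, 137 and 180.5 CPM in si Ctrl, at 120.1, 130.0 and 123 CPM in si mH2A1.1 and at 99.5, 90.2 and 101 CPM in si mH2A1.2. The groups stood apart in the order si Ctrl, si mH2A1.1, si mH2A1.2, with no overlap. Cacnb1 fell by 0.67 on the log2 scale with si mH2A1.2 (SE 0.11, adjusted p = 0.0202), and its log2 fold change with si mH2A1.1 was -0.31 ± 0.11 (adjusted p = 0.0935). In the direct comparison it was higher with si mH2A1.1 (0.36 ± 0.11, adjusted p = 0.0435). Without either of replicates 1 and 3 of si Ctrl or replicates 1 and 2 of si mH2A1.2, the call against si Ctrl was lost (adjusted p = 0.0522 to 0.077). The direct call on Cacnb1 was lost without si Ctrl replicate 1 or any 1 of the 6 knockdown samples (0.0574 to 0.150).

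Cacna1s, the pore and voltage sensor itself, was at 305, 242 and 379 CPM in si Ctrl, at 172, 233 and 232 CPM in si mH2A1.1 and at 288, 205 and 254 CPM in si mH2A1.2. All si mH2A1.1 samples lay below the controls, while the si mH2A1.2 samples overlapped them, and neither difference passed the test (log2 fold change -0.54 ± 0.19, adjusted p = 0.089, and -0.31 ± 0.19, adjusted p = 0.472). Antisense exons of Gm37759 cover 20.0% of the Cacna1s exons, and since the strand setting of the counting is not given in the sources used here, their reads cannot be told apart. Gm37759 itself had 43 to 99 counts per sample, next to at least 6972 for Cacna1s. Cacna2d1, the alpha2delta subunit, was at 288, 261 and 328 CPM in si Ctrl, at 169, 246 and 228 CPM in si mH2A1.1 and at 312, 275 and 298 CPM in si mH2A1.2. It was the single L-type subunit gene called lower with si mH2A1.1 than with si mH2A1.2 (-0.46 ± 0.15, adjusted p = 0.046). That call was lost when any 1 sample other than si mH2A1.1 replicate 2 was left out (adjusted p = 0.0502 to 0.124).

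Cacng6, a gamma subunit at a low level, was at 3.00, 3.41 and 2.48 CPM in si Ctrl, at 3.24, 4.50 and 3.48 CPM in si mH2A1.1 and at 2.26, 2.27 and 2.39 CPM in si mH2A1.2. It was higher with si mH2A1.1 than with si mH2A1.2 (0.70 ± 0.20, adjusted p = 0.0297), a call lost without any 1 of si mH2A1.1 replicates 2 and 3 and the 3 si mH2A1.2 samples (0.057 to 0.0967). Stac3, the adaptor that couples the voltage sensor to the release channel, was at 44.7, 35.9 and 57.1 CPM in si Ctrl, at 63.3, 52.7 and 46.2 CPM in si mH2A1.1 and at 42.9, 28.6 and 38.9 CPM in si mH2A1.2. Both knockdowns overlapped the controls. All si mH2A1.1 samples were above all si mH2A1.2 samples, but the direct difference of 0.56 ± 0.20 did not pass the test (adjusted p = 0.0661). It was called with the replicate block (0.028) and by DESeq2 (0.0389). Cacng1, the skeletal muscle gamma subunit, stood at 226 ± 29.9, 236 ± 22.4 and 202 ± 2.99 CPM in the control, si mH2A1.1 and si mH2A1.2 samples and was called in no comparison. Cacna1c, the cardiac counterpart of Cacna1s, had 1 to 8 counts per sample and was not tested.

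The SR calcium release channels and their partners were called in no comparison, 0 of 5 in each. At an unadjusted p under 0.05 edgeR gave 1 of them with si mH2A1.1 (Fkbp1a) and 0 in the other comparisons, and DESeq2 and limma-voom called 0. Ryr1, the skeletal muscle ryanodine receptor, was at 836, 536 and 917 CPM in si Ctrl, at 787, 822 and 891 CPM in si mH2A1.1 and at 775, 435 and 562 CPM in si mH2A1.2. Replicate 2 was the lowest sample in si Ctrl and in si mH2A1.2, and the spread within those groups was wider than in si mH2A1.1. The log2 fold changes were 0.13 ± 0.23 (adjusted p = 0.751) for si mH2A1.1, -0.37 ± 0.23 (0.482) for si mH2A1.2 and 0.50 ± 0.23 between them (0.149). Per kilobase, Ryr1 made up 83.6 ± 0.470% of ryanodine receptor reads in si Ctrl, 87.0 ± 1.33% in si mH2A1.1 and 82.5 ± 2.57% in si mH2A1.2, and Ryr3, a form of immature muscle, made up nearly all of the rest. Ryr2, the cardiac form, was at 0.696 to 1.90 CPM over the 9 samples. Itpr1, the inositol trisphosphate receptor, was at 18.4 to 31.1 CPM and Fkbp1a, which encodes the ryanodine receptor binding protein FKBP12, at 153 to 225 CPM.

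Within the junctional SR and its calcium buffers, 7 genes were tested and none was called against si Ctrl by edgeR. At an unadjusted p under 0.05, 1 was higher and 2 were lower with si mH2A1.1 and 6 were lower with si mH2A1.2, and DESeq2 called 1 and 2 genes lower. With the replicate block, 1 was called higher and 2 lower with si mH2A1.1, and 4 were called lower with si mH2A1.2. Between the knockdowns 3 were called, all higher with si mH2A1.1. Trdn, whose product triadin ties calsequestrin to the ryanodine receptor, was at 39.8, 38.2 and 48.5 CPM in si Ctrl, at 44.6, 59.3 and 62.6 CPM in si mH2A1.1 and at 31.8, 31.8 and 37.1 CPM in si mH2A1.2. All si mH2A1.1 samples were above all si mH2A1.2 samples, by 0.73 ± 0.14 on the log2 scale (1.65-fold, adjusted p = 0.00699). With si mH2A1.1 against si Ctrl the Trdn log2 fold change was 0.40 ± 0.14 (adjusted p = 0.0987). It was called with the replicate block (0.0282) but not by DESeq2 (0.0773). Jsrp1, which encodes the junctional SR protein JP-45, was at 102, 84.9 and 92.9 CPM in si Ctrl, at 116, 113 and 94.0 CPM in si mH2A1.1 and at 76.0, 65.7 and 66.3 CPM in si mH2A1.2. Its direct difference was 0.63 ± 0.11 (1.55-fold, adjusted p = 0.00418). Against si Ctrl si mH2A1.2 gave a Jsrp1 log2 fold change of -0.43 ± 0.11 (adjusted p = 0.0839), which passed with the replicate block (0.0312). Srl, the SR calcium-binding protein sarcalumenin, was at 977, 877 and 1261 CPM in si Ctrl, at 1071, 1159 and 1199.8 CPM in si mH2A1.1 and at 707, 599 and 807 CPM in si mH2A1.2. The si mH2A1.2 samples were the lowest of the 3 groups, with a direct difference of 0.70 ± 0.16 (1.62-fold, adjusted p = 0.0127) that was lost without si mH2A1.2 replicate 2 (0.0566). For si mH2A1.2 against si Ctrl, Srl had a log2 fold change of -0.56 ± 0.16 (adjusted p = 0.108), called with the replicate block (0.033).

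The calsequestrin genes were lower in both knockdowns without passing the test. Casq1, the fast muscle calsequestrin, was at 114, 124 and 165 CPM in si Ctrl, at 36.7, 79.6 and 89.7 CPM in si mH2A1.1 and at 51.6, 69.3 and 107 CPM in si mH2A1.2. Every knockdown sample lay below every control sample, and within each knockdown replicate 1 was the lowest. The log2 fold changes were -0.97 ± 0.33 (adjusted p = 0.0836) for si mH2A1.1 and -0.82 ± 0.33 (adjusted p = 0.255) for si mH2A1.2. Both were called with the replicate block (0.00581 and 0.026). Casq2, the cardiac and slow muscle form, made up 85.1 ± 1.93% of calsequestrin reads per kilobase in si Ctrl, 89.2 ± 3.32% in si mH2A1.1 and 87.5 ± 2.94% in si mH2A1.2. It stood at 1091 ± 312 CPM in si Ctrl, 774 ± 85.6 CPM in si mH2A1.1 and 730.4 ± 106 CPM in si mH2A1.2. With the replicate block both differences from si Ctrl were called. For si mH2A1.1 the log2 fold change was -0.50 (adjusted p = 0.123 without the block and 0.0354 with it). For si mH2A1.2 it was -0.58 (adjusted p = 0.176 without the block and 0.0456 with it). Hrc, a luminal calcium-binding protein gene, was at 313 ± 62.4, 262 ± 27.2 and 229 ± 25.3 CPM in the control, si mH2A1.1 and si mH2A1.2 samples, and Asph, which encodes junctin among other products, at 149 ± 14.4, 135 ± 13.6 and 145 ± 21.2 CPM.

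Among the junctophilins and tubule proteins, 2 of 5 tested genes fell with si mH2A1.2 and none was called with si mH2A1.1 by edgeR without the block. For si mH2A1.1, 2 were lower at an unadjusted p under 0.05, 2 by DESeq2 and 2 with the replicate block. Junctophilins anchor the tubule to the SR. Jph1 was at 79.5, 79.6 and 103 CPM in si Ctrl, at 55.0, 63.8 and 71.5 CPM in si mH2A1.1 and at 47.6, 52.0 and 62.2 CPM in si mH2A1.2. Jph2, on chromosome 2 from 163336242 to 163397993, was at 317, 338 and 417 CPM in si Ctrl, at 258, 277 and 273 CPM in si mH2A1.1 and at 209.5, 245 and 258 CPM in si mH2A1.2. For both genes all knockdown samples of either kind lay below all controls. With si mH2A1.2, Jph1 fell by 0.69 on the log2 scale (SE 0.14, adjusted p = 0.0388) and Jph2 by 0.59 (SE 0.13, adjusted p = 0.0418). With si mH2A1.1 the log2 fold changes were -0.46 ± 0.14 for Jph1 (adjusted p = 0.0648) and -0.41 ± 0.13 for Jph2 (0.061), and the direct differences of 0.23 ± 0.14 and 0.18 ± 0.13 were not called (0.272 and 0.329). With the replicate block, both genes were called lower with si mH2A1.1 (0.00538 and 0.0212), and the direct difference of Jph1 was called (0.0439). The call on Jph1 was lost without any 1 sample other than si mH2A1.1 replicate 1 and si mH2A1.2 replicate 3 (adjusted p = 0.0526 to 0.125), and that on Jph2 without any 1 sample other than si mH2A1.1 replicate 1 (0.0551 to 0.115).

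Bin1, whose product bends the membrane of the tubule, was at 697, 616 and 841 CPM in si Ctrl, at 857, 799 and 803 CPM in si mH2A1.1 and at 508, 470.4 and 581 CPM in si mH2A1.2. The si mH2A1.2 samples were below all others, the direct difference was 0.66 ± 0.14 (1.58-fold, adjusted p = 0.00819), and the log2 fold change against si Ctrl was -0.47 ± 0.14 (adjusted p = 0.115, called with the replicate block at 0.0489). Cav3, the muscle caveolin gene, was at 17.8 ± 1.55, 21.4 ± 2.16 and 17.3 ± 2.77 CPM in the control, si mH2A1.1 and si mH2A1.2 samples. Mtm1, the myotubularin gene, was at 13.8 ± 3.39, 11.2 ± 0.922 and 12.0 ± 2.68 CPM, and both were called in no comparison without the block. With the replicate block the direct difference of Cav3 was called, higher with si mH2A1.1 (adjusted p = 0.0443).

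**Figure D2:**
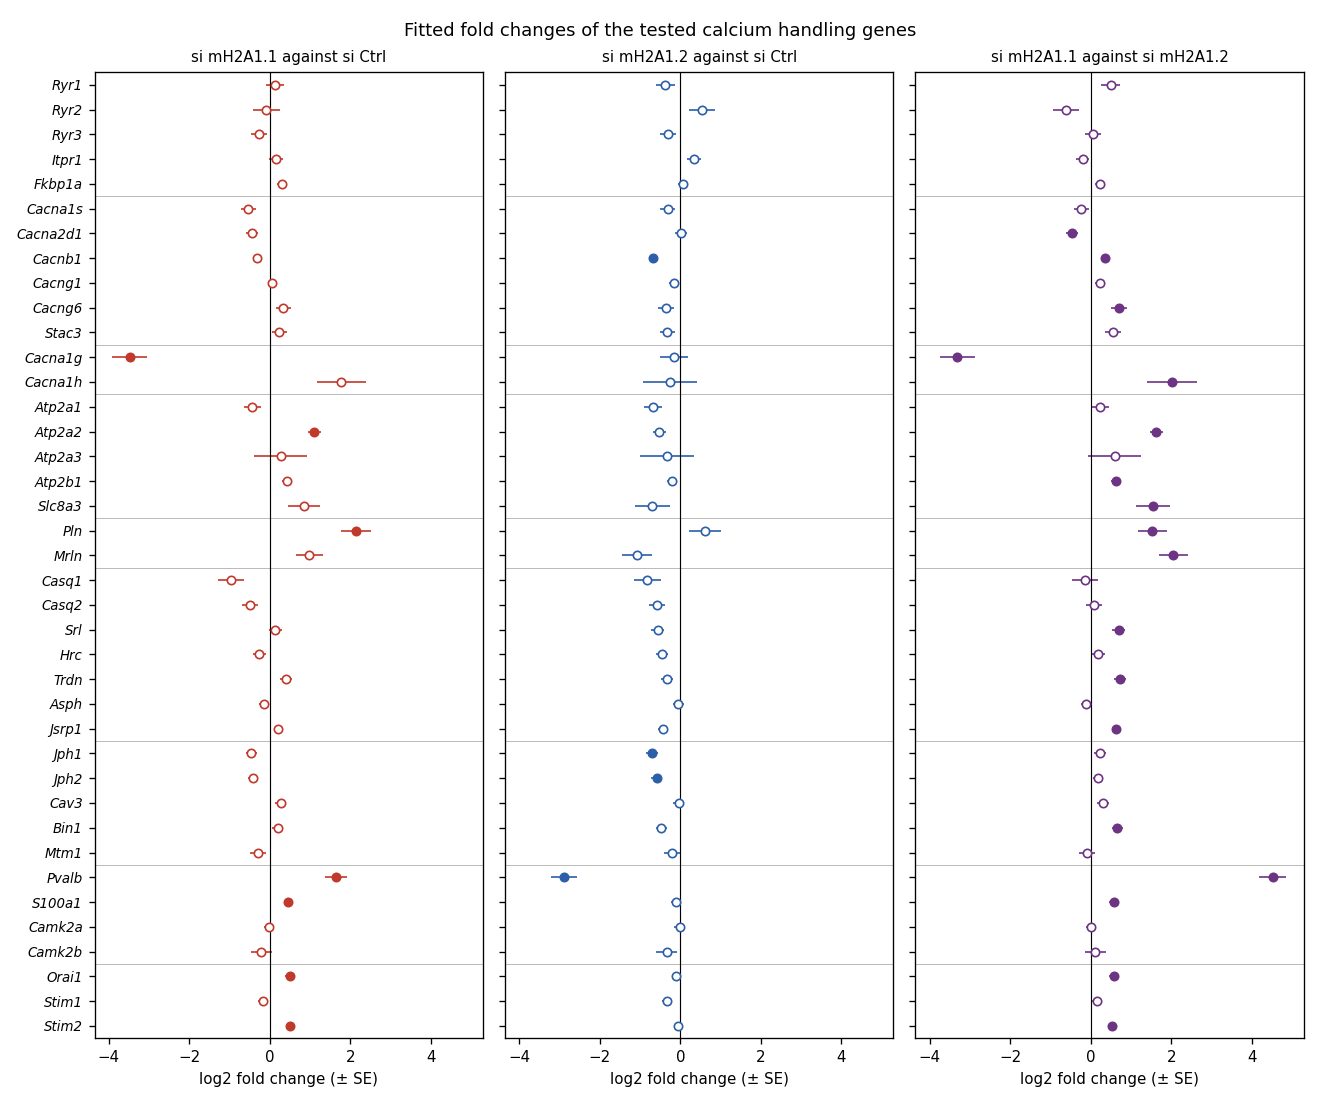
Fitted log2 fold change (x axis) with its SE (bars) for each of the 39 tested genes, in order of role, in the 3 comparisons. Filled circles passed an adjusted p of 0.05, and grey lines separate the roles. Filled circles number 7, 4 and 18 from left to right, and those of the middle panel are all to the left of 0.

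The pumps and the exchanger, which remove calcium from the cytosol, had 5 tested genes, of which 1 rose with si mH2A1.1, 0 were called with si mH2A1.2 (2 lower at an unadjusted p under 0.05, and 2 lower by DESeq2) and 3 were higher with si mH2A1.1 in the direct comparison. Atp2a2, on chromosome 5 from 122453513 to 122502225, was at 934, 739 and 958 CPM in si Ctrl, at 1617, 1776 and 2262 CPM in si mH2A1.1 and at 653, 544 and 629.9 CPM in si mH2A1.2. The 3 groups did not overlap, with si mH2A1.1 highest and si mH2A1.2 lowest. Atp2a2 rose 2.15-fold with si mH2A1.1 (SE 0.16 on the log2 scale, adjusted p = 0.00461). Against si Ctrl, si mH2A1.2 gave a log2 fold change of -0.53 ± 0.16 (adjusted p = 0.131), and the knockdowns had a direct difference of 1.63 ± 0.16 (3.09-fold, adjusted p = 0.0003). Both calls held without any 1 sample, at adjusted p of at most 0.0227 and 0.00245. These counts sum the 5 annotated transcripts of Atp2a2, so its splice forms cannot be told apart.

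Atp2a1, the fast muscle pump SERCA1 and the most abundant gene of the list per kilobase in si Ctrl (660.2 ± 163 CPM per kb), was at 2128, 1832 and 2927 CPM in si Ctrl, at 1265, 2038 and 1783 CPM in si mH2A1.1 and at 1476, 1258 and 1574 CPM in si mH2A1.2. Its si mH2A1.2 samples lay below all controls and its si mH2A1.1 samples overlapped them. Neither difference passed the test (log2 fold change -0.44 ± 0.21, adjusted p = 0.201, and -0.68 ± 0.21, adjusted p = 0.146, for si mH2A1.1 and si mH2A1.2). Antisense exons of Rabep2 (895 to 1441 counts per sample) cover 21.9% of the Atp2a1 exons, next to at least 48205 counts of Atp2a1. Atp2a3 was scattered, from 5.64 to 45.5 CPM over the 9 samples, with a different replicate highest in si mH2A1.1 than in the other groups, and was called in no comparison.

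Among SERCA reads, the share of Atp2a2 was larger in the si mH2A1.1 samples. Atp2a2 made up 19.9, 18.7 and 15.7% of SERCA reads per kilobase in the si Ctrl samples, 42.1, 32.9 and 41.9% in the si mH2A1.1 samples and 20.0, 19.7 and 18.6% in the si mH2A1.2 samples. The group means were 18.1 ± 2.14%, 39.0 ± 5.22% and 19.4 ± 0.746%. All si mH2A1.1 samples were above all others, whereas si mH2A1.2 overlapped si Ctrl. An exact two-sided permutation test of 3 against 3 samples cannot go below p = 0.1, so no test is given for this share. The sum over the 3 SERCA genes was 808 ± 179 CPM per kb in si Ctrl, 802 ± 147 in si mH2A1.1 and 516 ± 54.9 in si mH2A1.2. With the longest transcript of each gene as its length, an alternative chosen after seeing the data, the shares were 19.1, 40.6 and 20.5%.

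**Figure D3:**
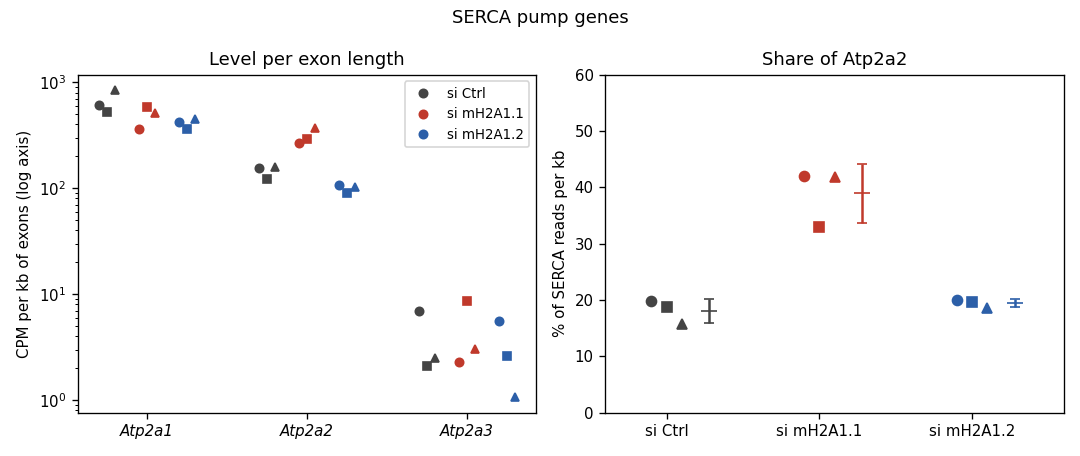
Left, level of the 3 SERCA genes in CPM per kb of exons on a log axis, with 1 point per sample (circle, square and triangle for replicates 1, 2 and 3). Right, share of Atp2a2 among SERCA reads per kb in percent, with mean and SD as bars. The share is 32.9 to 42.1% in the si mH2A1.1 samples and 15.7 to 20.0% in the other 6.

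Atp2b1, the plasma membrane calcium pump PMCA1, was at 384, 363 and 339 CPM in si Ctrl, at 413, 556 and 481 CPM in si mH2A1.1 and at 307, 328 and 303 CPM in si mH2A1.2. The 3 groups did not overlap. The direct difference of 0.63 ± 0.12 (1.55-fold, adjusted p = 0.00613) was called, and that of si mH2A1.1 against si Ctrl was 0.42 ± 0.12 (adjusted p = 0.0525). The latter was called with the replicate block (0.0329) and by DESeq2 (0.0131). Slc8a3, the sodium-calcium exchanger NCX3, was low, at 0.964, 0.373 and 0.541 CPM in si Ctrl, 1.14, 1.01 and 1.24 CPM in si mH2A1.1 and 0.633, 0.287 and 0.242 CPM in si mH2A1.2. It was 2.92-fold higher with si mH2A1.1 than with si mH2A1.2 (log2 difference 1.54 ± 0.42, adjusted p = 0.0264), a call lost without replicate 1 or 3 of si mH2A1.1 or replicate 2 or 3 of si mH2A1.2 (0.0723 to 0.105).

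The micropeptides that bind SERCA and slow it were at low levels, at most 5.05 ± 2.14 CPM per kb on average (Mrln in si mH2A1.1). Pln, the phospholamban gene, on chromosome 10 from 53337667 to 53345987, was at 0.402, 0.346 and 0.284 CPM in si Ctrl, at 0.766, 1.78 and 2.03 CPM in si mH2A1.1 and at 0.551, 0.496 and 0.537 CPM in si mH2A1.2. The si mH2A1.1 samples were above all others, with replicate 1 the lowest of them, on 31, 72 and 88 counts against 11 to 20 in the other 6 samples. Pln rose with si mH2A1.1 by 2.14 ± 0.37 on the log2 scale (adjusted p = 0.00886). For si mH2A1.2 it was 0.61 ± 0.40 (adjusted p = 0.501), and the direct difference was 1.53 ± 0.36 (adjusted p = 0.014), which was lost without si mH2A1.1 replicate 3 or si mH2A1.2 replicate 2 (0.0553 to 0.058). Exons of Pln overlap antisense exons of Gm47644 over 1644 bp and of Cep85l over 141 bp, where reads cannot be told apart without the strand. Gm47644 had 0 to 2 counts per sample and Cep85l 541 to 969.

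Mrln, which encodes myoregulin, was at 2.52, 2.21 and 4.31 CPM in si Ctrl, at 8.74, 3.83 and 5.32 CPM in si mH2A1.1 and at 1.68, 1.02 and 1.61 CPM in si mH2A1.2. The si mH2A1.1 samples overlapped the controls through their replicate 2, and the si mH2A1.2 samples lay below all others. Mrln was 4.15-fold higher with si mH2A1.1 than with si mH2A1.2 (log2 difference 2.05 ± 0.37, adjusted p = 0.00411), while the log2 fold changes against si Ctrl, 0.98 ± 0.35 (adjusted p = 0.0904) and -1.07 ± 0.37 (0.178), did not pass. The first of these was called with the replicate block (0.0348) and by DESeq2 (0.0379), and the second by neither (0.0665 and 0.0595). Sln, the sarcolipin gene, was not tested, and its 3 si mH2A1.1 samples held 2, 6 and 7 counts, against 0 or 1 in the other 6. A count of 0 allows up to 3 counts (0.069 to 0.0825 CPM per sample, for counting error only). The si Ctrl and si mH2A1.2 samples were under this floor, as was si mH2A1.1 replicate 1 with its 2 counts.

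The T-type channels, which open at low voltage and are expressed in early muscle, were at low levels and lay on opposite sides of si Ctrl with si mH2A1.1. Cacna1g, on chromosome 11 from 94408391 to 94474198, was at 1.66, 1.84 and 1.70 CPM in si Ctrl, at 0.0741, 0.173 and 0.207 CPM in si mH2A1.1 and at 2.42, 1.17 and 1.05 CPM in si mH2A1.2. In counts, si Ctrl held 62, 69 and 66 and si mH2A1.1 held 3, 7 and 9, so that 1 library was at the floor of 3 counts. Cacna1g fell with si mH2A1.1 by 3.48 on the log2 scale (SE 0.43, adjusted p = 0.00268) and was 9.96-fold lower with si mH2A1.1 than with si mH2A1.2 (-3.32 ± 0.43, adjusted p = 0.000916). Both calls held without any 1 sample, at adjusted p of at most 0.0139 and 0.00501, and si mH2A1.2 gave a log2 fold change of -0.16 ± 0.34 (adjusted p = 0.867). Cacna1h was at 0.750, 0.346 and 0.155 CPM in si Ctrl, at 2.10, 1.31 and 0.875 CPM in si mH2A1.1 and at 0.633, 0.313 and 0.107 CPM in si mH2A1.2. The spread within each group was wide, and all si mH2A1.1 samples were above all others. The direct difference was 2.02 ± 0.62 (adjusted p = 0.0407) and that against si Ctrl 1.77 ± 0.61 (adjusted p = 0.0829). The difference from si Ctrl was called with the replicate block (0.0051) and by DESeq2 (0.0418). The direct call was lost without si Ctrl replicate 2, any 1 of the 3 si mH2A1.1 samples, or replicate 2 or 3 of si mH2A1.2 (0.0505 to 0.151), and over all 9 samples left out in turn the log2 difference of Cacna1h ranged from 1.59 (without si mH2A1.2 replicate 3) to 2.73 (without its replicate 1).

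Of the cytosolic calcium-binding proteins and kinases, Pvalb and S100a1 were called and Camk2a and Camk2b were not. Parvalbumin, encoded by Pvalb on chromosome 15 from 78191114 to 78206400, is the calcium buffer of fast-relaxing fibers. Pvalb was at 3.48, 1.63 and 3.66 CPM in si Ctrl, at 8.25, 8.69 and 10.3 CPM in si mH2A1.1 and at 0.330, 0.470 and 0.376 CPM in si mH2A1.2. The 3 groups stood apart from each other, and no other gene of the list was called in opposite directions by the knockdowns. Pvalb rose with si mH2A1.1 by 1.63 ± 0.27 on the log2 scale (adjusted p = 0.00748) and fell by 2.89 with si mH2A1.2 (SE 0.33, adjusted p = 0.00631). The direct difference was 22.9-fold (4.52 ± 0.33 on the log2 scale, adjusted p = 0.000124). All 3 calls held without any 1 sample, at adjusted p of at most 0.0358, 0.0314 and 0.00103. Even at its highest, Pvalb was at 8.72 ± 1.04 CPM per kb, below Atp2a1 at 488 ± 113 CPM per kb in the same samples.

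S100a1, a calcium sensor that acts on the ryanodine receptor and SERCA, was at 30.3, 42.1 and 33.7 CPM in si Ctrl, at 48.0, 48.8 and 49.3 CPM in si mH2A1.1 and at 31.9, 34.5 and 32.0 CPM in si mH2A1.2. The si mH2A1.1 samples were close together and above all others. S100a1 rose with si mH2A1.1 by 0.46 ± 0.12 (1.38-fold, adjusted p = 0.0339) and was 1.49-fold higher than with si mH2A1.2 (adjusted p = 0.00814). The first call was lost without si Ctrl replicate 1 or 3, any 1 of the si mH2A1.1 samples, or si mH2A1.2 replicate 2 (0.0526 to 0.112). Camk2a was at 138 ± 10.9, 136 ± 20.7 and 136 ± 13.4 CPM in the control, si mH2A1.1 and si mH2A1.2 samples, and Camk2b, the other calcium/calmodulin-dependent kinase gene of the list, at 18.8 ± 7.02, 16.3 ± 2.41 and 15.0 ± 3.64 CPM.

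Store-operated calcium entry refills the SR from outside the cell, and 2 of its 3 genes rose with si mH2A1.1. In the other knockdown 0 were called by edgeR or DESeq2, and 1 was lower at an unadjusted p under 0.05. Stim2, an SR calcium sensor, was at 77.3, 67.5 and 73.0 CPM in si Ctrl, at 108, 99.0 and 99.5 CPM in si mH2A1.1 and at 79.0, 67.4 and 64.3 CPM in si mH2A1.2. Orai1, the channel that such sensors open, was at 15.2, 13.1 and 15.7 CPM in si Ctrl, at 23.0, 19.7 and 19.1 CPM in si mH2A1.1 and at 13.8, 12.8 and 14.6 CPM in si mH2A1.2. For both genes the si mH2A1.1 samples were above all others, while si mH2A1.2 overlapped si Ctrl. Stim2 rose 1.41-fold with si mH2A1.1 (0.49 ± 0.10 on the log2 scale, adjusted p = 0.0164) and was 1.45-fold higher than with si mH2A1.2 (adjusted p = 0.00528). Orai1 rose 1.41-fold (0.49 ± 0.12, adjusted p = 0.0312) and was 1.50-fold higher than with si mH2A1.2 (adjusted p = 0.00843). Stim1, the main SR sensor of muscle, was at 73.5 ± 9.85, 65.2 ± 4.52 and 58.4 ± 5.27 CPM in the control, si mH2A1.1 and si mH2A1.2 samples and was called in no comparison. Against si Ctrl, the call on Stim2 was lost without replicate 2 or 3 of si Ctrl or replicate 1 or 3 of si mH2A1.1 (0.0522 to 0.0723), and that on Orai1 without any 1 control or replicate 1 or 3 of si mH2A1.1 (0.0587 to 0.120).

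**Figure D4:**
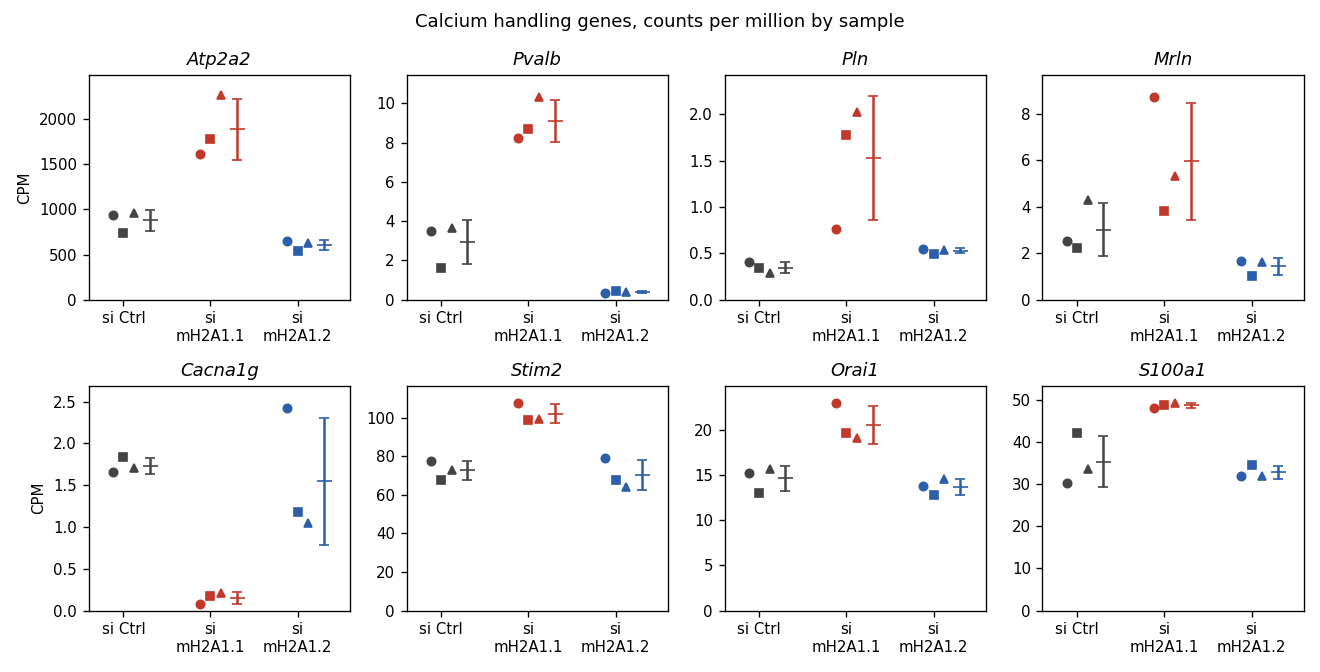
Level in CPM (y axes, from 0) of 8 calcium handling genes in each sample, with circles, squares and triangles for replicates 1, 2 and 3 and bars for the mean and SD of 3 samples. Atp2a2, Pln, Stim2, Orai1 and S100a1 are highest in the si mH2A1.1 samples, Pvalb and Mrln are lowest in si mH2A1.2, and Cacna1g is at 0.0741 to 0.207 CPM in si mH2A1.1.

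Other genes of muscle calcium handling, 81 in all, were matched for 78, and 62 were tested. With si mH2A1.1, 5 of the 62 rose and 4 fell, next to 6.18 and 4.93% of all tested genes. Those of smallest adjusted p were Homer3, a scaffold of calcium signaling (log2 fold change 0.90, adjusted p = 0.00641), Rrad, a small GTPase that restrains L-type channels (-0.72, 0.00723), Mylk2, the skeletal myosin light chain kinase (0.71, 0.0207), and Cacna1a, a neuronal calcium channel gene (1.64, 0.0273). With si mH2A1.2, 1 fell (Mylk2, -1.09, adjusted p = 0.0131), next to 0.982% of all tested genes, and 0 rose, next to 1.37%. At an unadjusted p under 0.05, 8 were lower and 7 higher, and by DESeq2 4 were lower and 1 higher. In that comparison the replicate block called 2 higher and 2 lower. In the direct comparison 9 were higher and 10 lower with si mH2A1.1, next to 12.0 and 10.5% of all tested genes. Among them were Mylk2 (1.80, adjusted p = 0.000199), the exchanger gene Slc8a1 (-1.32, 0.000578), Rrad (-1.06, 0.000466) and Rcan1, a calcineurin regulator (0.85, 0.00697). The median log2 fold change of the 62 was -0.05, -0.07 and 0.09 in the 3 comparisons.

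Markers of cell state moved in the same samples, and their part in the values above was not tested. Of 27 myogenic differentiation markers, 3 rose and 2 fell with si mH2A1.1, 0 rose and 5 fell with si mH2A1.2 (10 lower with the replicate block), and 10 were higher and 3 lower in the direct comparison. Their summed level was 28195 to 41214 CPM in si Ctrl, 26739 to 31732 CPM in si mH2A1.1 and 22946 to 29469 CPM in si mH2A1.2. Those of smallest adjusted p with si mH2A1.1 were Myf6 (log2 fold change 1.90) and Myh4 (1.57), which rose, and Myog (-0.66) and Mymx (-0.82), which fell. Those with si mH2A1.2 all fell, namely Myf6 (-1.64), Tnnt3 (-0.96), Myh1 (-1.76) and Myf5 (-0.84). Of 11 cycling cell markers, 1 was called higher with si mH2A1.1 by edgeR. All 11 had a log2 fold change above 0 there, with a median of 0.80. In that comparison 10 were higher at an unadjusted p under 0.05, 7 by DESeq2 and 10 with the replicate block. With si mH2A1.2 0 were called (also 0 at an unadjusted p under 0.05 and by DESeq2). All 11 were higher with si mH2A1.1 in the direct comparison, and the sums were 354 to 567, 507 to 1078 and 279 to 409 CPM. All 12 interferon response genes rose with si mH2A1.1 and 0 were called with si mH2A1.2 (1 lower at an unadjusted p under 0.05 and by DESeq2), and the 12 were higher with si mH2A1.1 in the direct comparison, with sums of 55.5 to 68.2, 226 to 807 and 59.4 to 84.5 CPM.

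Markers of other cell types were counted in the same fit, so the same shares of all tested genes stand next to them. Of 7 smooth muscle and myofibroblast markers, 4 fell with si mH2A1.1, 2 rose with si mH2A1.2 (3 with the replicate block) and 5 were lower with si mH2A1.1 in the direct comparison, with sums of 11566 to 15781, 5374 to 7775 and 19960 to 25761 CPM. Of 8 cardiomyocyte markers, 6 were tested, 1 fell with si mH2A1.1, 2 fell with si mH2A1.2, and 3 were higher and 1 lower in the direct comparison, with sums of 1043 to 1898, 1410 to 1701 and 850.3 to 1206 CPM. The atrial genes Nppa and Myl7 among them had at most 3 and 1 counts per sample. Others were well detected, with Tnnt2, Myh6 and Gata4 at 1350 ± 418, 41.9 ± 16.3 and 32.9 ± 3.72 CPM in si Ctrl. The sums therefore mostly reflect Tnnt2. Of 7 reserve cell markers, 6 were tested, 0 were called against si Ctrl by edgeR (1 higher with either knockdown by DESeq2, and 2 higher at an unadjusted p under 0.05, with 1 lower for si mH2A1.2) and 2 were higher and 2 lower in the direct comparison, with sums of 595 to 676, 598 to 822 and 684 to 887 CPM. Of 8 adipocyte and osteoblast markers, 6 were tested and 1 was lower with si mH2A1.1 in both its comparisons. With si mH2A1.2 0 were called by edgeR against si Ctrl, 1 was lower at an unadjusted p under 0.05, 0 were called by DESeq2, and 1 was lower with the replicate block. The markers had sums of 48.1 to 81.9, 38.3 to 42.4 and 48.7 to 85.3 CPM, and Adipoq, which defines adipocytes, had at most 2 counts.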

How the data were processed

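mRNA of 9 C2C12 samples was sequenced by the authors as single reads of about 50 bp. Per the labels and the study's methods, reads were quantified with Salmon on GRCm38 (mm10) and imported into DESeq2. The deposited table holds expected counts, the reads estimated for each gene by Salmon, as whole numbers without normalization. The annotation release and strand setting are not given in the sources used here. A deposited table of the same counts divided by a size factor per sample was not used. Symbols, positions and exon lengths came from GENCODE M21 (52762 of 52780 genes named).

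The members and gene lists were chosen with earlier results of these data known. Differential expression was tested with edgeR 4.0.16 (R 4.3.3) by the legacy quasi-likelihood test, with TMM scaling, filterByExpr on the groups (19545 genes) and Benjamini-Hochberg adjustment over all of them, with the 9 samples in 1 model and 3 contrasts. A call needed an adjusted p of 0.05 or less, the threshold of the study's methods. The script was tested on simulated data with known changes. Alternatives were DESeq2 1.42.0, DESeq2's size factors, no filter, a minimum of 10 counts per sample, a replicate block, fits without the group not compared, limma-voom (limma 3.58.1), a stricter threshold, and leaving out each sample. Depth was 36924252 to 42223108 counts per sample, and floors account for counting error alone, because duplicate reads of a molecule cannot be recognized. Values in every sample were given for each gene called in any contrast (20) and for the core triad genes (5 more), and other named genes were up to 4 called genes of smallest adjusted p in their list, or defining markers at or near 0 counts.

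Deviations from the group mean of samples with the same replicate number correlated at r = 0.196 to 0.331 over genes between si mH2A1.2 and si Ctrl, all over 0.1, so those samples were taken as paired and blocked values are given beside that comparison where they changed a call or a count. The pairing comes from the data. Labels give the numbers, and column codes that run in sequence within each number, without saying what such samples share. For the other pairs of groups the correlations were also positive but lower. They were 0.0841 to 0.0976 between si mH2A1.1 and si Ctrl and 0.0917 to 0.116 between the knockdowns. Not all of these passed 0.1, so those comparisons were kept unblocked, with some blocked values given beside them.

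Tables and figures were made with Python 3.11.15, pandas 2.3.3, numpy 2.4.6 and matplotlib 3.10.9.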

Additional observations from a re-analysis of the deposited data

How the results depend on the processing

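Over the alternatives to single-gene results other than leaving out a sample, 488 kept their direction and their side of the threshold, 26 lost the call, 31 gained one and 0 turned direction. With each sample left out in turn, the counts were 601, 67, 7 and 0. With si mH2A1.1 against si Ctrl, 7 genes of the list were called in the main analysis, 15 by DESeq2 and 15 with the replicate number as a block, where 16.7% and 20.8% of all genes were called, and 4 under the stricter threshold. With si mH2A1.2 against si Ctrl the 4 calls became 9 by DESeq2 (5.90% of all genes), 9 with the block (5.14%), 2 with the samples of those groups alone and 1 under the stricter threshold. In the direct comparison 18 became 4 under the stricter threshold and 21 with the block, next to 29.0% of all genes. Outside the comparison of si mH2A1.2 with si Ctrl, samples of the same number deviated together more weakly. Their mean r was 0.0896 between si mH2A1.1 and si Ctrl and 0.103 between the knockdowns. Leaving out 1 sample gave 4 to 8, 1 to 4 and 11 to 17 calls in the 3 comparisons, next to 2.99 to 14.6%, 0.367 to 2.72% and 11.2 to 23.0% of all genes. The lowest counts came without si Ctrl replicate 3 or si mH2A1.1 replicate 3 (4 with si mH2A1.1), without si Ctrl replicate 1 or 3 or si mH2A1.2 replicate 1 or 2 (1 with si mH2A1.2) and without si mH2A1.2 replicate 2 (11 in the direct comparison). Sln and Cacna1c, at no more than 8 counts in any sample, were left out of the main analysis by the filter on low counts and entered only the fits by DESeq2 and without the filter.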
